A study of Mus musculus with 11 samples.

Results

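Ventricular myocytes (VM) were compared with tail tip fibroblasts (TTF) on Affymetrix mouse expression arrays, 1 array for each cell type. The 2 arrays are part of a series of 11, and the comparison runs over 18193 genes taken from 45101 probe sets. Both cell types came from pups at postnatal day 1 with a mixed C57/Bl and BlackSwiss genetic background, and the labels name no transgene or treatment for either. The other 9 arrays hold cultured pluripotent cells of that background, with 3 arrays each of induced stem cells of ventricular myocyte origin, induced stem cells of tail tip fibroblast origin, and embryonic stem cells. They serve here only as a reference level and to show how far replicate arrays differ. The labels call the isolation of both primary cell types standard, and the number of pups, any time in culture and any step to remove other cell types are not given in the sources used here.

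Every value is a log2 expression level, so that a difference of 1 unit is a doubling on the linear scale. A gene was counted as higher or lower in VM when the 2 arrays differed by at least 2 log2 units, which is 4-fold. With 1 array per cell type there is no test and no error for any single difference, and cell type and array cannot be told apart. The number of arrays limits the precision. Array levels of different genes are not on a common scale, so a level describes its own gene and only differences are compared across genes.

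Heart muscle cells of the ventricle contract through sarcomeres, in which thick filaments of myosin slide along thin filaments of actin and troponin that are anchored at the Z disc. They take up calcium into a sarcoplasmic reticulum between beats and draw most of their energy from mitochondria, and in the days after birth they move from glucose and lactate toward fatty acids as fuel and leave the cell cycle. Fibroblasts of the tail lie in connective tissue and make its collagens, glycoproteins and remodelling enzymes, and fibroblasts of different body sites are known to keep different patterns of Hox genes in culture.

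Of the 18193 genes, 852 (4.68%) were higher in VM by 2 log2 units or more and 841 (4.62%) were lower by as much, together 1693 (9.31%). At 1 unit or more, 1931 (10.6%) were higher and 2482 (13.6%) lower, and at 3 units 478 (2.63%) and 374 (2.06%). The median difference over all genes was -0.02 log2 units. The counts in both directions were alike at 2 units, but the largest differences lay on the VM side. At 4 log2 units or more, 275 genes were higher in VM and 157 were lower. At 8 units or more, 25 were higher and 3 lower. For scale, the median standard deviation of a gene within the replicated groups of pluripotent cells was 0.146 log2 units and its 95th percentile 0.381. Between replicate arrays of 1 group, the number of genes at least 2 units apart was 0 for all 3 pairs of myocyte-derived stem cells, 4 to 8 for the pairs of fibroblast-derived stem cells and 16 to 107 for the pairs of embryonic stem cells. Those arrays give no estimate of the spread between preparations of VM or TTF. Nearest to the threshold on the VM side were Prdm1, just inside it at 7.42 in VM and 5.41 in TTF, and Ndufa6, just outside it at 12.36 and 10.36. On the TTF side these were Robo1, inside at 5.04 and 7.04, and Celf4, outside at 4.99 and 6.99.

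**Figure D1:**
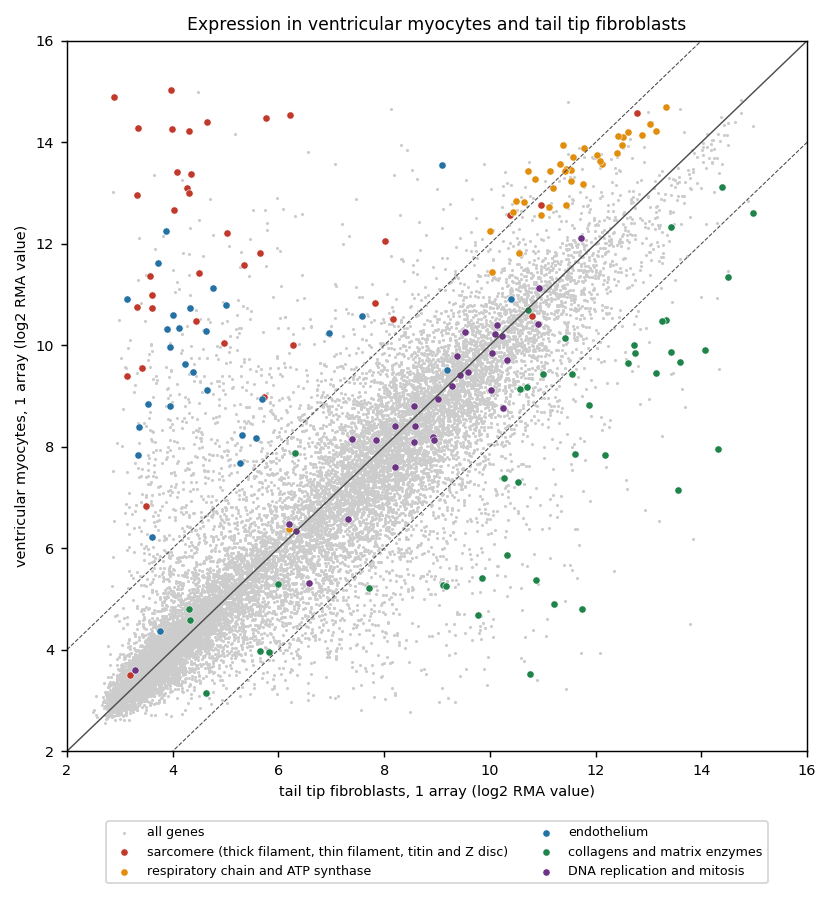
Each point is 1 of 18193 genes, with its log2 RMA value on the TTF array on the horizontal axis and on the VM array on the vertical axis. The solid line marks equal values and the dashed lines a difference of 2 log2 units. Sarcomere genes lie far above the upper line at up to 12.00 units, collagens and matrix enzymes lie mostly below the lower line, respiratory chain genes run in a band around 1.69 units, and genes of DNA replication and mitosis lie along the diagonal.

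The labels were first set beside defining markers. Markers such as Myh6 and Crabp1 are also among the largest differences, and lists were chosen with earlier results of these data known. The counts are therefore a description and no independent check of the labels. All 10 markers listed for ventricular myocytes were higher in VM by 2 units or more, with VM levels of 10.99 to 15.02 and TTF levels of 2.89 to 5.77. Most of them mark heart muscle cells in general, Myl2 is the ventricular light chain, and Nppa stands in the atrial list as well. Of 10 general fibroblast markers, 6 were at least 2 units lower in VM and none was higher. The highest of these markers in VM were Col3a1 at 13.12, Col1a2 at 12.61 and Postn at 12.39. Their medians over the 9 pluripotent arrays were 7.77, 9.89 and 6.19. The lowest in VM were Fap at 4.28, Thy1 at 5.55 and S100a4 at 6.17. In VM, Fap lay above its pluripotent range of 3.31 to 3.65. Thy1 and S100a4 lay below theirs, 5.96 to 6.46 and 8.87 to 9.97. Of 7 markers of tail skin fibroblasts, 5 were lower in VM and the others, Dlk1 and Hoxd9, differed by -0.17 and -0.09. Of 7 atrial markers, Myl7, Sln, Nppa and Myl4 were higher in VM, while Bmp10 (-0.21), Nr2f1 (-1.63) and Nr2f2 (-1.35) were within 2 units. Of 4 measured conduction system markers, none was higher in VM and Shox2 was lower. VM thus carries its defining markers together with some transcripts of fibroblasts and, as given further on, of vessels. The part of these cells in the VM values was not tested.

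The genes with the largest differences in the VM direction encode the contractile apparatus and its supply of oxygen and energy. Myh6 (chromosome 14), the alpha cardiac myosin heavy chain, read 14.90 in VM and 2.89 in TTF, a difference of 12.00 log2 units. Its pluripotent levels ran from 3.81 to 4.24, all above TTF and all far below VM. Myl2 (chromosome 5), the ventricular regulatory light chain, read 15.02 in VM and 3.96 in TTF, a difference of 11.06. Tnnt2 (chromosome 1), the cardiac troponin that binds tropomyosin, read 14.28 and 3.34, a difference of 10.94, with pluripotent levels of 3.20 to 3.60. For Myl2 and Tnnt2 the TTF value lay inside the range of the 9 pluripotent arrays, so that VM alone stood apart. The next in order were the oxygen store myoglobin (Mb, 10.52), slow skeletal troponin I (Tnni1, 10.27), the small muscle protein Smpx (10.14), cardiac troponin I (Tnni3, 9.91), cardiac alpha actin (Actc1, 9.74), phospholamban (Pln, 9.70), titin (Ttn, 9.63), the Z disc crosslinker Actn2 (9.32), the cytochrome oxidase subunit Cox8b (9.07), the muscle LIM protein Csrp3 (9.01), muscle creatine kinase (Ckm, 8.98) and cardiac myosin binding protein C (Mybpc3, 8.82). A value near the bottom of the scale is mostly background, so these differences can understate the true ratios.

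In the TTF direction the largest differences fell on genes of varied function. Crabp1 (chromosome 9), a carrier of retinoic acid, read 4.51 in VM and 13.78 in TTF, a difference of -9.27. Its pluripotent levels of 7.61 to 8.88 lay between the values of the 2 primary cell types. Ppbp (chromosome 5), a chemokine best known from platelets, read 3.22 and 11.45, a difference of -8.23. Dkk2 (chromosome 3), a secreted regulator of Wnt signalling, read 3.94 and 12.08, a difference of -8.14. The pluripotent levels of Dkk2, 3.25 to 3.69, lay below both cell types, close to VM. Next came the cell cycle inhibitor locus Cdkn2a (-7.78), the calcium binding protein S100a4 (-7.67), tenomodulin of tendon (Tnmd, -7.47), the matrix proteases Mmp13 (-7.24) and Mmp3 (-6.93), the matrix protein Cilp (-6.88), the surface protein Thy1 (-6.80), the basophil protease Mcpt8 (-6.79), the hyaluronan degrading protein Cemip (-6.75), thrombospondin 4 (Thbs4, -6.66), the cofactor Vgll3 (-6.65) and the adhesion protein Svep1 (-6.47). The pluripotent arrays read Mmp3, Mmp13, Cdkn2a, S100a4, Mcpt8 and Vgll3 between VM and TTF, as they did Thy1 and Ppbp with a smaller gap to VM. For Tnmd, Cilp and Cemip the VM value lay within the pluripotent range.

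**Figure D2:**
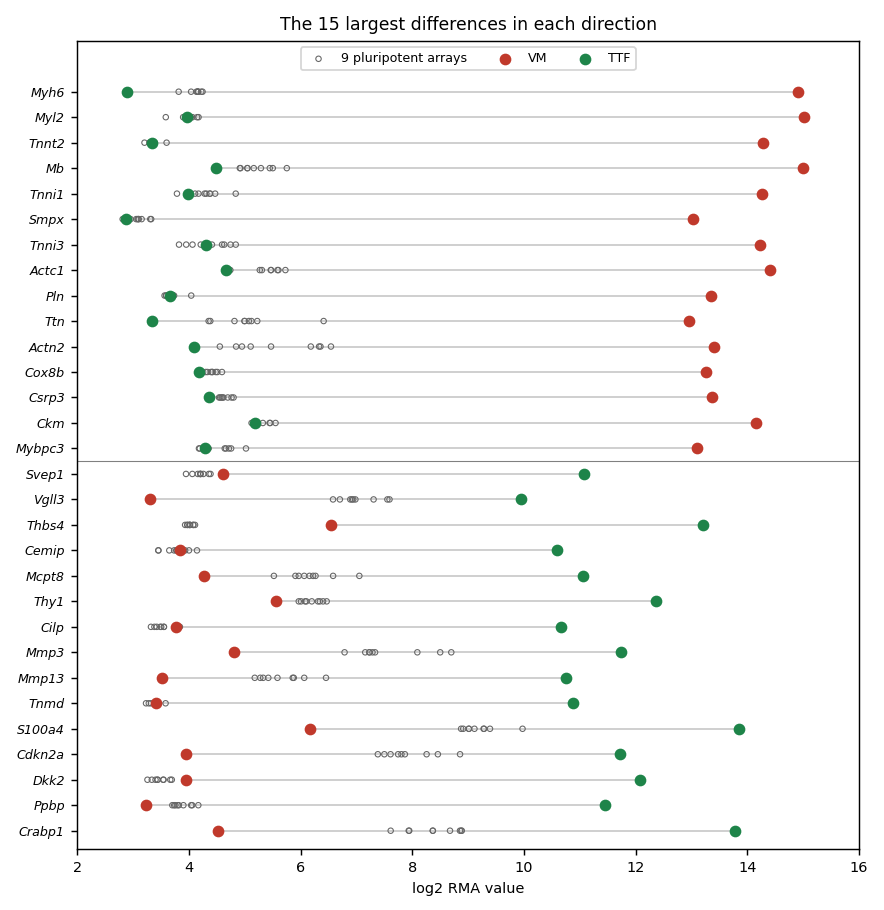
Log2 RMA values (horizontal axis) of the 15 genes with the largest difference in each direction, with VM and TTF as filled points, 1 array each, and the 9 pluripotent arrays as open circles. In the upper block, from Myh6 at 12.00 units to Mybpc3 at 8.82, VM stands apart from all other arrays. In the lower block, Crabp1, Cdkn2a, S100a4, Mmp3, Mmp13, Vgll3 and Mcpt8 have pluripotent values between VM and TTF.

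Most of these genes read outside the pluripotent range in the cell type where they were higher. Of the 852 genes higher in VM, 765 read higher in VM than in all 9 pluripotent arrays, and 411 read lower in TTF than in all 9. Of the 841 genes lower in VM, 721 read higher in TTF than in all 9 pluripotent arrays and 426 read lower in VM than in all 9. All of these genes were selected for the gap between VM and TTF, so such readings are partly built in. The share of all measured genes outside the pluripotent range was not counted, so these counts are a description only.

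Promoters of the 3 genes with the largest difference in each direction are shown because these genes differ most between the cell types. The 5 others are the sarcomere genes among the 20 largest differences in the VM direction that hold a MEF2 site or a CArG box before the start, and they were picked after the motif counts were seen. Sequences are from RefSeq, build GRCm38.p6, and run 5′ to 3′ in the direction of transcription over the 250 bases before the start. Of the 18193 genes, 14452 were matched by symbol to the RefSeq promoter table. Myl2 and Tnnt2 have 2 listed starts each, and the one farthest upstream is shown. The positions are Myh6 chr14:54966608-54966857 on the minus strand, Myl2 chr5:122092474-122092723 on the plus strand, Tnnt2 chr1:135836084-135836333 on the plus strand, Actc1 chr2:114052876-114053125 on the minus strand, Ttn chr2:76982548-76982797 on the minus strand, Mybpc3 chr2:91117894-91118143 on the plus strand, Myl3 chr9:110763428-110763677 on the plus strand, Myoz2 chr3:123034988-123035237 on the minus strand, Crabp1 chr9:54764498-54764747 on the plus strand, Ppbp chr5:90768268-90768517 on the plus strand and Dkk2 chr3:132085042-132085291 on the plus strand. Capitals mark matches on either strand to the TATA box TATAAA, the MCAT element CATTCC (read by TEAD factors), the GATA site AGATAA, the AP-1 site TGANTCA, the GC box GGGCGG, the MEF2 site and the CArG box (read by serum response factor). No 2 of the 26 matches in these sequences overlap.
Myh6 promoter: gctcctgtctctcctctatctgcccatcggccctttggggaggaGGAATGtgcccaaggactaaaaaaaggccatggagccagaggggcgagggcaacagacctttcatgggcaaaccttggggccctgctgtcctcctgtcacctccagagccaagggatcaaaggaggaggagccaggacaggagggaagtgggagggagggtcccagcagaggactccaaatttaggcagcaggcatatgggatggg
Myl2 promoter: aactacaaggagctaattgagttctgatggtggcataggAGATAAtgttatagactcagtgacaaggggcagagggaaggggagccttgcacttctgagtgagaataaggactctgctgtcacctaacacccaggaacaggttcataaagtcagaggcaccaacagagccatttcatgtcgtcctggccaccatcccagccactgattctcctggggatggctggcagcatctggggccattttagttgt
Tnnt2 promoter: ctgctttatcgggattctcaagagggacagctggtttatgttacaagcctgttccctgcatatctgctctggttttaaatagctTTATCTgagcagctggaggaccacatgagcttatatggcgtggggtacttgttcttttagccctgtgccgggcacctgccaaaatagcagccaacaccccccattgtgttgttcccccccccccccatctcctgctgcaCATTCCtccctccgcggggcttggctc
Actc1 promoter: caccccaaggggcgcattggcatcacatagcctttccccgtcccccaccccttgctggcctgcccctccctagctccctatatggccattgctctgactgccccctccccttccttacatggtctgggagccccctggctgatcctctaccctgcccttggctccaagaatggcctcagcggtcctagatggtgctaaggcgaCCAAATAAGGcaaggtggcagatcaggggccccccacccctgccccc
Ttn promoter: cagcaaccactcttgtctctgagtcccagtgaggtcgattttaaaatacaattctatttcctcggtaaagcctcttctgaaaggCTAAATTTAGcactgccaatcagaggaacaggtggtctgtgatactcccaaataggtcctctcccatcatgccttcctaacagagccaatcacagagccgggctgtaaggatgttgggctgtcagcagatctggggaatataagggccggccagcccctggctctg
Mybpc3 promoter: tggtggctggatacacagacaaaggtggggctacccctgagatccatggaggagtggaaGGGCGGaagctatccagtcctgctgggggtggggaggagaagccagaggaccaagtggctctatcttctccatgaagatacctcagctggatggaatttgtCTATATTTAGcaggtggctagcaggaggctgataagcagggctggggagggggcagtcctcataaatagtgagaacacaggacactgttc
Myl3 promoter: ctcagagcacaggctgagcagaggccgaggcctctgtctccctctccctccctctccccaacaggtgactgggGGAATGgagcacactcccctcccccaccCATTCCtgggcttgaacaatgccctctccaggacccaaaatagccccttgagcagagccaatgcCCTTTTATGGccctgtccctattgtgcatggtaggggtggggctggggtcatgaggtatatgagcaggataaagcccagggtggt
Myoz2 promoter: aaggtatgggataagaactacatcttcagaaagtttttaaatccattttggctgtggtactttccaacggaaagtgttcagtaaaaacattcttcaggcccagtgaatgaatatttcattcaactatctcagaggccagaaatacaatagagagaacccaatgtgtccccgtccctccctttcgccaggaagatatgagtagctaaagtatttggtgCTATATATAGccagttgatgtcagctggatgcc
Crabp1 promoter: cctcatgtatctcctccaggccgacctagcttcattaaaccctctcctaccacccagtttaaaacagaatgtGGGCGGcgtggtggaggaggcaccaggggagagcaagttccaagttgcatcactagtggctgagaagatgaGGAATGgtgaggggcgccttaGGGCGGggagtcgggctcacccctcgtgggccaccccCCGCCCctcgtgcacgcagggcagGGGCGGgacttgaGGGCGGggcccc
Ppbp promoter: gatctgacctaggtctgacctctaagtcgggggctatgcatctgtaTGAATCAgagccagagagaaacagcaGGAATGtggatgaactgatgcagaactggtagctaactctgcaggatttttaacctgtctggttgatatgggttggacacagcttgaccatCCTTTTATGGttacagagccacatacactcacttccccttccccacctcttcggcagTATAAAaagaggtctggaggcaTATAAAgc
Dkk2 promoter: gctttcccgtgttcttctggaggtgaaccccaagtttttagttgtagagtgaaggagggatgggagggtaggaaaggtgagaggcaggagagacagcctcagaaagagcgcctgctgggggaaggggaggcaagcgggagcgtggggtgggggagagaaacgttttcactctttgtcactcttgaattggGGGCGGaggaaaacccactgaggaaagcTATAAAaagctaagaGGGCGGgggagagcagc

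In the Actc1 promoter the CArG box lies 47 to 38 bases before the start. In Myl3 it lies 85 to 76 bases before the start and has the letters CCTTTTATGG. The promoter of the fibroblast-high gene Ppbp holds the same 10 letters 87 to 78 bases before its start, so the motif is not limited to genes that are high in VM. The MEF2 site lies 166 to 157 bases before the start in Ttn, 90 to 81 in Mybpc3 and 33 to 24 in Myoz2. All RefSeq promoters of 300 bases (250 before and 50 after the start) outside chromosome 18 were searched. A CArG box was found in 21.7% of 46 promoters of 32 sarcomere genes and 1.45% of 69 promoters of 61 matrix genes. Of all 32851 promoters searched, 1.63% held a CArG box. The MEF2 site was found in 8.7%, 0% and 0.557%, the MCAT element in 34.8%, 13% and 14.7%, and the GATA site in 21.7%, 2.9% and 11.2%, in the same order. The GC box went the other way, with 23.9% of sarcomere promoters, 65.2% of matrix promoters and 35.7% of all. The TATA box (15.2%, 17.4% and 13.6%) and the AP-1 site (8.7%, 5.8% and 7.81%) were found at closer shares. Several genes have more than 1 listed start, and their promoters can share bases. A match is a description of these letters and not a binding site.

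Gene lists by function covered 956 measured genes, of which 358 were among the 1693 genes past the threshold. The lists were chosen with earlier results of these data known, so their counts are set beside the 4.68% of all genes higher and 4.62% lower as a description only, with no test.

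**Figure D3:**
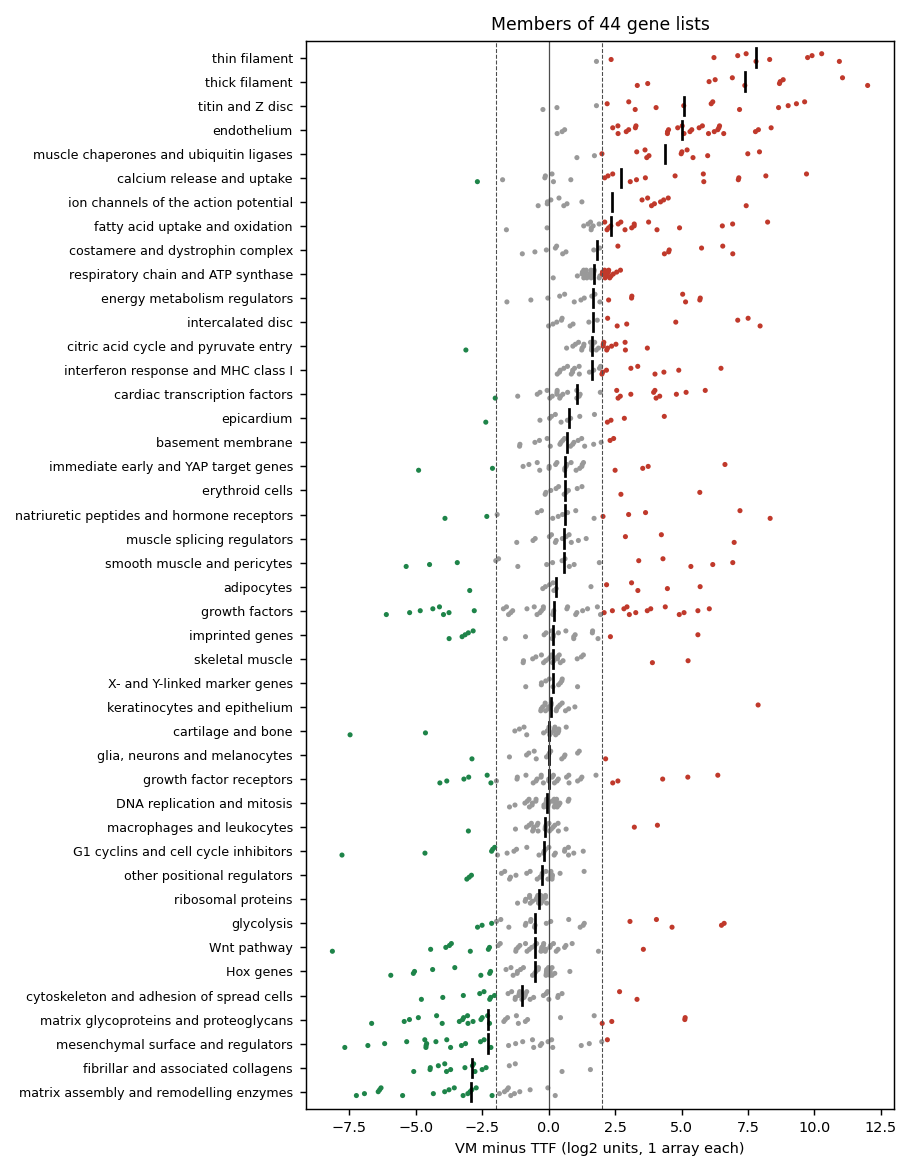
VM minus TTF (horizontal axis, log2 units, 1 array each) for each measured member of 44 gene lists, ordered by the list median, which is drawn as a black bar. Points past the dashed lines at 2 units are red when higher in VM and green when lower. Thin filament genes head the plot with a median of 7.80, endothelial genes stand among the muscle lists at 5.02, and matrix enzymes are at the foot with -2.93.

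Of 37 measured genes of the thick filament, thin filament, titin and Z disc, 33 were higher in VM and 0 lower, with a median difference of 7.11. All 11 thick filament genes were higher. Besides Myh6, Myl2 and Myl3 (8.71), these include the beta myosin heavy chain Myh7, which read 10.99 in VM and 3.61 in TTF (7.38). Myl7 and Myl4, light chains that are mainly atrial in the adult, were also higher, by 6.04 and 3.73. The M band protein Myom2 differed by 8.69 and the cardiac myosin light chain kinase Mylk3 by 6.26.

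Thin filament genes were higher in 10 of 11 cases. Cardiac troponin C (Tnnc1) differed by 8.32, the nebulin relative Nebl by 7.80 and the filament length regulators Lmod2 and Tmod1 by 7.43 and 6.22. Skeletal alpha actin (Acta1) differed less, at 10.51 in VM and 8.16 in TTF. The exception was alpha tropomyosin, Tpm1, at 14.58 and 12.79 (1.80), a gene with separate muscle and non-muscle transcripts. Its 4 probe sets disagreed. One read 8.13 in VM and 3.41 in TTF (4.72), another 10.64 and 13.18 (-2.53), and the last differed by -0.11.

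At the Z disc, 12 of 15 measured genes were higher in VM. Besides Ttn, Actn2 and Csrp3 they included the calcineurin binding protein Myoz2 (8.65), the titin cap Tcap (7.18), Ldb3 (6.17), myopalladin (Mypn, 6.12) and the stress responsive Ankrd1 (4.04). Myotilin (Myot) was low in both, at 3.51 and 3.20. Pdlim5 read 10.58 and 10.79 on the probe set used, while another of its 7 probe sets read 12.33 and 7.44 (4.88).

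Of 16 measured genes of the costamere and the dystrophin complex, which tie the sarcomere to the cell membrane, 7 were higher in VM and 0 lower, with a median of 1.81. The muscle intermediate filament desmin (Des) differed by 6.93, caveolin 3 (Cav3) by 6.55, the cyclic AMP binding Popdc2 by 5.75 and alpha sarcoglycan (Sgca) by 4.54. Dystrophin itself (Dmd) read 7.87 in VM and 5.95 in TTF (1.92), and its broadly expressed relative utrophin (Utrn) 8.95 and 9.95. Muscle chaperones and ubiquitin ligases were higher in 12 of 14 cases, with a median of 4.38. The myosin chaperone Unc45b differed by 7.93 and the ubiquitin ligase Trim63 by 7.49. Of the small heat shock proteins, Hspb7 differed by 5.43, Cryab by 3.69 and the widely expressed Hspb1 by 3.31.

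Splicing regulators differed in few members. Of 16 measured, 3 were higher in VM and 0 lower, with a median of 0.59. The titin splicing factor Rbm20 read 11.10 in VM and 4.12 in TTF (6.98), above the pluripotent range of 4.48 to 5.01. Rbm24 differed by 4.24 and Rbpms by 2.89. Mbnl1 (0.77), Celf1 (0.51) and Ptbp1 (-0.51) were within 2 units.

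Calcium handling genes were higher in VM in 13 of 20 cases and lower in 1, with a median of 2.74. Phospholamban, the brake on the calcium pump, read 13.36 in VM and 3.65 in TTF. The release channel Ryr2 read 11.24 and 4.09 (7.16), and the calcium store protein Casq2 12.66 and 5.52 (7.14). Sarcalumenin (Srl) differed by 8.17, the histidine rich protein Hrc by 5.84, triadin (Trdn) by 5.82 and the L type channel subunits Cacnb2 and Cacna1c by 4.76 and 3.30. The T tubule junction protein Jph2 differed by 3.64 and the sodium calcium exchanger Slc8a1 by 2.41. The pump itself, Atp2a2, was within 2 units on the probe set used, at 12.03 in VM and 11.91 in TTF. Among its other 5 probe sets, 1 read 14.32 and 9.04 (5.27) and another 13.42 and 7.77 (5.65). Asph, whose transcripts encode junctin and junctate as well as a hydroxylase, read 7.71 and 10.39 (-2.68). Of its 6 probe sets, others read 8.12 and 4.47 (3.65) and 6.57 and 2.95 (3.62), so the direction of Asph depends on the probe set.

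Of 16 measured ion channel genes of the action potential, 8 were higher in VM and 0 lower, with a median of 2.38. Abcc9, the regulatory subunit of the ATP sensitive potassium channel, differed by 7.43 (10.84 against 3.41), while its pore partner Kcnj11 differed by 0.69. The delayed rectifier genes Kcne1 (4.50), Kcnh2 (4.33) and Kcnq1 (3.72) and the transient outward subunit Kcnip2 (4.21) were higher in VM. Kcnj2, an inward rectifier subunit, was at 3.01 and 2.93 and thus near the bottom of the scale in both.

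At the intercalated disc, which joins neighbouring myocytes, 7 of 16 genes were higher in VM and 0 lower, with a median of 1.67. Desmosome genes were among them. Desmoplakin (Dsp) read 12.46 in VM and 4.50 in TTF (7.96), with pluripotent levels of 8.09 to 9.86 between them. Desmoglein 2 (Dsg2) differed by 7.51, Xirp1 by 7.11 and plakophilin 2 (Pkp2) by 4.78. The genes of junctions that fibroblasts also form were high in both, with N-cadherin (Cdh2) at 11.47 and 10.67, beta-catenin (Ctnnb1) at 13.35 and 13.19, and the gap junction protein connexin 43 (Gja1) at 12.96 and 12.45.

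Cardiac hormones were among the larger differences. The atrial natriuretic peptide gene Nppa read 12.15 in VM and 3.82 in TTF (8.33), and Nppb, the related B-type peptide, 11.77 and 4.57. Their processing protease Corin differed by 3.65. The pluripotent arrays read Nppa at 3.57 to 3.96 and Nppb at 7.60 to 9.80, so the Nppb value of TTF lay below all of them. In the whole list of hormones and receptors, 5 of 16 were higher in VM and 2 lower. The lower ones were the angiotensin receptor Agtr2, at 3.06 and 6.97 (-3.90), and the natriuretic peptide receptor Npr2, which differed by -2.33. The clearance receptor Npr3 differed by -1.94.

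Of 30 cardiac transcription factors, 11 were higher in VM and 1 lower, with a median of 1.06. Gata6 read 10.84 in VM and 4.95 in TTF (5.89), but reached 7.01 in the highest pluripotent array. Nkx2-5 read 9.87 and 5.07 (4.81) and Gata4 8.36 and 4.18 (4.18), with pluripotent levels of 4.81 to 5.26 and 3.89 to 4.92. The homeodomain protein Hopx differed by 5.17, the ventricular factor Irx4 by 4.0, the Notch target Hey1 by 3.95, Mef2c by 3.09, Mef2a by 2.69 and the serum response factor partner Myocd by 2.56. Irx1 was lower in VM, by a small margin (-2.01), and Tbx5 (1.06), Hand1 (0.31) and Isl1 (-0.06) were within 2 units. For Tbx20 and Hand2 the probe set used gave small differences, 1.94 and 0.45. Other probe sets of these genes read 9.69 in VM and 3.14 in TTF (6.55) for Tbx20, and 8.80 and 3.58 (5.22) for Hand2.

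Genes of energy metabolism differed as whole groups, by smaller steps than the sarcomere. All 35 measured genes of the respiratory chain and ATP synthase read higher in VM, 13 of them by 2 units or more, with a median of 1.69 and a range of 0.17 to 2.70. Cyc1, which hands electrons to cytochrome c, differed by 2.70, the ATP synthase subunit Atp5g1 by 2.56 and the flavoprotein subunit Ndufv1 by 2.43. Of 27 genes of the citric acid cycle and pyruvate entry, 26 read higher in VM, 10 of them by 2 units or more, with a median of 1.65. Idh2 differed by 3.71, the pyruvate dehydrogenase subunit Pdhb by 2.89 and Mdh1 by 2.88. The exception was the ketone enzyme Bdh1, at 3.85 in VM and 6.96 in TTF (-3.12), whose other probe set differed by -0.84.

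Genes of fatty acid uptake and oxidation were higher in 16 of 25 cases and lower in 0, with a median of 2.34. The fatty acid transporter Cd36 read 11.90 in VM and 3.66 in TTF (8.24), far above the pluripotent range of 3.05 to 3.34. Pdk4, which shuts pyruvate out of oxidation, read 12.89 and 5.97 (6.92). The carrier Fabp3 read 14.66 and 8.12 (6.54), with pluripotent levels of 12.36 to 13.01, so that TTF was the lowest of the 11 arrays. Lipoprotein lipase (Lpl) differed by 4.92 and the thiolase Acaa2 by 4.08. The acyl-CoA dehydrogenases Acadm, Acadl, Acadvl and Acads differed by 3.22, 3.12, 2.72 and 2.26. Cpt1a, the liver form of the entry step, was the member lowest in VM relative to TTF, at 8.24 and 9.83 (-1.59).

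Among regulators of these genes, 7 of 18 were higher in VM and 0 lower. The coactivators Ppargc1a and Ppargc1b read 9.33 against 3.63 (5.71) and 9.85 against 4.16 (5.69). The kinase subunit Prkaa2 differed by 5.15, Perm1 by 5.04 and the receptor Esrrg by 3.13, while Esrra (1.34), Ppara (1.62) and Tfam (0.41) were within 2 units. Ppard read 5.90 in VM and 7.47 in TTF.

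Glycolysis split by isoform, with 5 of 23 genes higher in VM, 3 lower and a median of -0.51. The higher ones were Pgam2 (6.60), Eno3 (13.57 against 7.07), Ldhb (4.64), the insulin regulated glucose transporter Slc2a4 (4.05) and Pfkm (3.06), forms typical of muscle or heart. The lower ones were Pgam1 (-2.68), the lactate exporter Slc16a3 (-2.51) and Pfkl (-2.15). Slc2a1, the widely expressed glucose transporter, read 9.74 and 11.71 (-1.96).

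This split was followed across 35 measured pairs of a muscle form and a related form, mainly of other tissues. In some pairs the related form is itself one of muscle, such as Tnni1 and the skeletal muscle gene Ryr1. Some listed muscle forms read high in both cell types on the probe set used, such as Atp2a2 at 12.03 and 11.91. Another probe set of Atp2a2 differed by 5.65. The muscle form was at least 2 units higher in VM in 29 pairs, with a median difference of 6.55 over the 35. The other form was within 2 units in 30 pairs, higher in 3 and lower in 2, with a median of 0.35. In 32 pairs the muscle form had the larger difference. Muscle creatine kinase Ckm read 14.15 in VM and 5.17 in TTF, while the brain form Ckb read 10.67 and 8.97 (1.70). The cytochrome oxidase subunit Cox6a2 differed by 7.25 and its ubiquitous counterpart Cox6a1 by 0.06 (14.17 and 14.10). Cox7a1 and Cox7a2 differed by 7.97 and 1.42, and Cox8b and Cox8a by 9.07 and 0.82. Actc1 differed by 9.74 and beta actin (Actb) by -0.57, and Actn2 by 9.32 and Actn1 by -1.48. In 14 pairs the muscle form was at least 2 units higher while the other form read lower in VM.

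Some pairs did not split. The troponin I genes Tnni3 and Tnni1 differed by 9.91 and 10.27. Tnni1 is the form of the fetal heart, which gives way to Tnni3 around birth, and both read above 14 in VM. Hspb6 and Hspb1 differed by 3.63 and 3.31 and Aldoa and Aldoc by -0.09 and 0.75. Ampd1 was at 3.66 and 3.65 and so low in both.

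**Figure D4:**
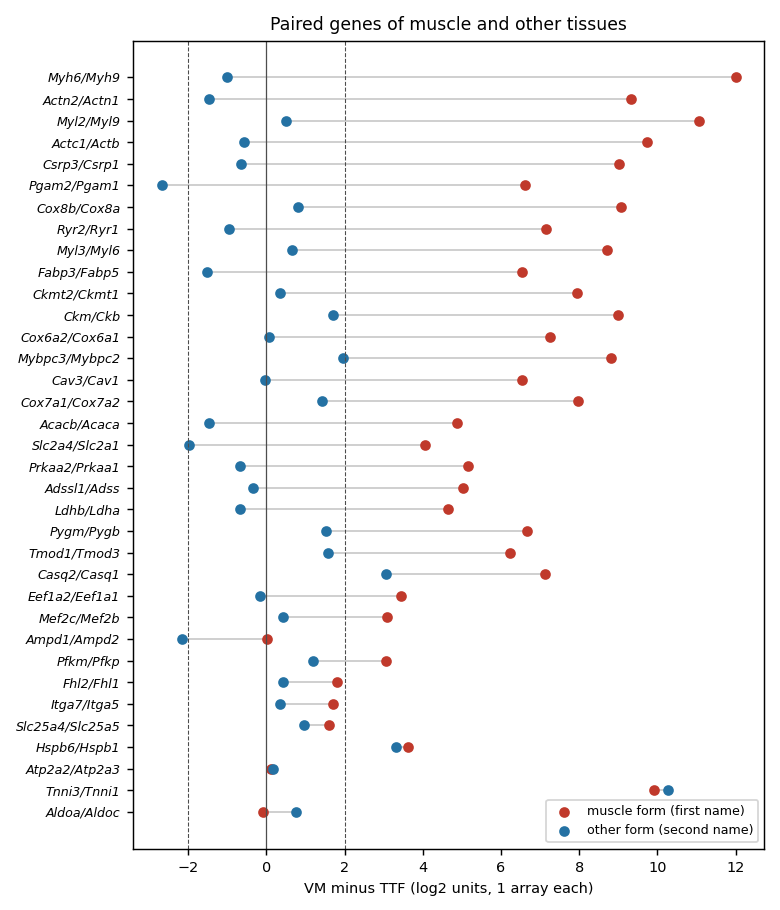
VM minus TTF (horizontal axis, log2 units, 1 array each) for 35 pairs, ordered by the gap within the pair. The muscle form is red (first name) and the related form, mainly of other tissues, is blue (second name). The red points have a median of 6.55 and the blue points of 0.35, and Tnni3/Tnni1 stands apart with both forms near 10.

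Matrix genes went the other way, with differences in the collagens and enzymes rather than in the basement membrane. Of 17 fibrillar and associated collagens, 13 were lower in VM and 0 higher, with a median of -2.87. Col5a3 read 4.69 in VM and 9.77 in TTF (-5.08), Col12a1 5.87 and 10.33 (-4.46) and Col5a1 9.91 and 14.06 (-4.15). The other probe set of Col5a3 differed by 0.31, and those of Col12a1 by -4.59 to 0.34. The type I genes Col1a1 and Col1a2 differed by -2.82 and -2.35. Their VM levels of 10.50 and 12.61 lay above the pluripotent ranges of 6.09 to 7.26 and 9.23 to 10.63. Col3a1, at 13.12 and 14.38, was within 2 units on the probe set used, while its other probe set differed by -3.88. Col14a1 was the collagen furthest in the other direction (1.57).

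Of 26 enzymes and inhibitors of matrix assembly and remodelling, 16 were lower in VM and 0 higher, with a median of -2.93. Besides Mmp13 and Mmp3 these were led by the antiangiogenic Serpinf1 (7.14 and 13.55, -6.42), the crosslinking enzyme Lox (7.96 and 14.32, -6.36) and the aggrecanase Adamts5 (4.90 and 11.21, -6.31). For Lox the VM value lay within the pluripotent range of 7.86 to 9.35. Loxl3, Loxl1, the procollagen hydroxylases P4ha2 and P4ha1 and the membrane protease Mmp14 differed by -5.50, -4.34, -3.75, -3.04 and -2.96. Timp3 (-0.03) and Timp4 (0.25) did not separate the arrays.

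Among 29 matrix glycoproteins and proteoglycans, 16 were lower and 4 higher in VM. Thbs4 (-6.66), the microfibril protein Mfap5 (-5.44), Thbs2 (-5.24) and tenascin C (Tnc, -4.90) were furthest on the TTF side. Elastin (Eln) was an exception, at 9.98 in VM and 4.84 in TTF (5.14) with pluripotent levels of 4.07 to 4.52. The others were Sparcl1 (5.12), the microfibril protein Mfap4 (2.37) and Tnxb (2.01). Basement membrane genes had a median of 0.71, with 2 of 20 higher, Agrn (2.44) and Col15a1 (2.31), and 0 lower. The broadly made type IV genes Col4a1 and Col4a2 read 13.21 against 12.31 and 12.92 against 11.81.

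Of 30 genes of the mesenchymal surface and its regulators, 16 were lower in VM and 1 higher, with a median of -2.30. Podoplanin (Pdpn) differed by -6.17, the homeobox genes Prrx2 and Prrx1 by -5.34 and -4.62, Osr1 by -4.66 and the collagen receptor Ddr2 by -4.61. The factors Snai2, Twist2 and Twist1 differed by -4.59, -4.24 and -3.28, and the growth factor receptor Pdgfra by -3.84. Tcf21, a factor of cardiac fibroblasts and epicardium, was the member higher in VM, at 5.54 and 3.33 (2.21). Vimentin (Vim) was high in both, at 13.68 and 14.25.

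Of 31 genes of the cytoskeleton and adhesion of spread cells, 8 were lower in VM and 2 higher, with a median of -1.01. S100a6 differed by -4.79, Tpm2 by -3.99, Lgals3 by -3.21 and Cald1 by -2.59. The laminin receptor Itga6 (3.32) and the collagen receptor Itga1 (2.67) were higher in VM.

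Hox genes carry body position, and the labelled tissues lie far apart along the axis. Of 33 measured Hox genes, 8 were lower in VM, 0 were higher and the median was -0.53. Hoxb13, the last gene of its cluster, read 3.48 in VM and 9.43 in TTF (-5.94), with pluripotent levels of 3.89 to 4.34. Hoxc10 read 3.11 and 8.20 (-5.09), Hoxb9 4.29 and 9.34 (-5.05) and Hoxc13 4.03 and 8.40 (-4.37). Hoxa10 (-3.53), Hoxb3 (-2.55), Hoxc8 (-2.22) and Hoxb6 (-2.19) completed the 8. All 8 lie in the Hoxa, Hoxb and Hoxc clusters. In the Hoxd cluster the largest difference was that of Hoxd11 (-0.48), and Hoxd13 read 4.40 and 4.80. For Hoxa9 the probe set used gave -1.19 and the other 3.46 against 7.32 (-3.86). Hoxa5 was the gene furthest on the VM side, at 6.27 and 5.47. Of 25 other positional regulators, 3 were lower in VM and 0 higher, Shox2 (-3.08), Eya1 (-2.99) and Tbx15 (-2.91).

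**Figure D5:**
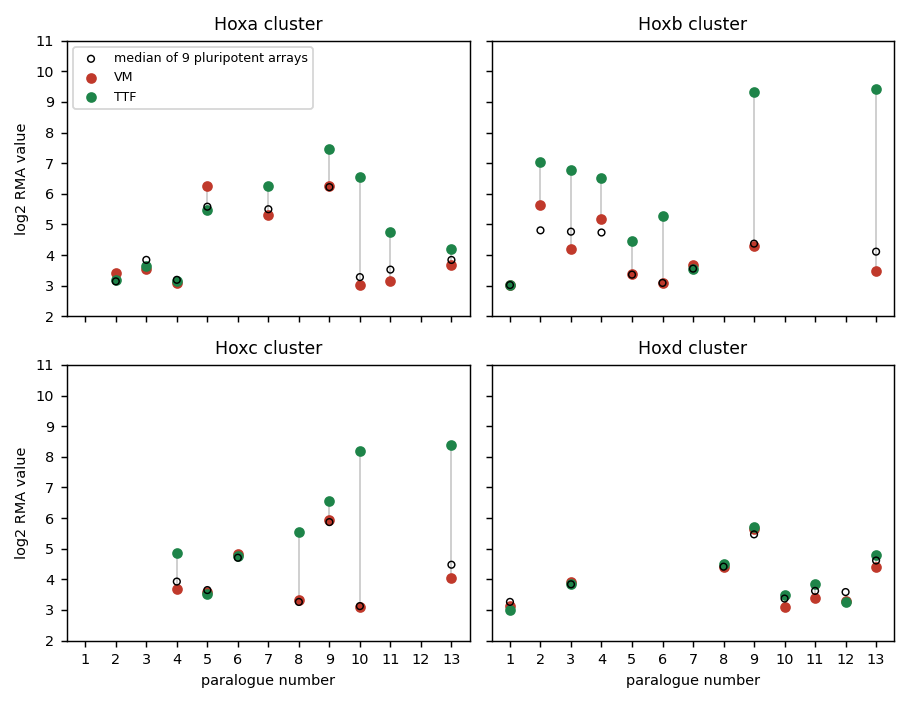
Log2 RMA values (vertical axis) of 33 Hox genes by cluster and paralogue number (horizontal axis), with VM red, TTF green (1 array each) and the median of the 9 pluripotent arrays as an open circle. TTF stands above VM at Hoxb9, Hoxb13, Hoxc10, Hoxc13 and Hoxa10 by 3.53 to 5.94 units, while the points of the Hoxd cluster lie together.

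Secreted growth factors differed in both directions, with 13 of 44 higher in VM, 8 lower and a median of 0.18. On the VM side, Pdgfb, a growth factor of vessel walls, read 10.23 against 4.18 (6.04) and Igf2 13.94 against 8.32 (5.62). Endothelin (Edn1, 5.09), Fgf1 (4.91), the intracellular Fgf13 (4.39), Bmp6 (3.84) and Angpt2 (3.71) followed. The TTF side was led by Fgf7, a factor for epithelium, at 3.85 and 9.96 (-6.11), then Pdgfc (-5.23), Vegfd (-4.83), the inhibin subunit Inhbb (-4.36), Pdgfd (-4.11) and Tgfb3 (-3.96). Within the PDGF family, Pdgfb was thus higher in VM, Pdgfc and Pdgfd were lower, and Pdgfa was within 2 units (1.28). Vegfb was higher in VM (2.95), Vegfd lower, and Vegfa (-0.27) and Vegfc (0.19) were within 2 units.

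Of 35 growth factor receptors, 5 were higher in VM and 6 lower. The higher ones were Kdr (6.36), Kit (5.24), Cxcr4 (4.29), Flt1 (2.60) and Flt4 (2.41), of which Kdr, Flt1 and Flt4 are receptors of vessels. The lower ones were the receptor-like Pdgfrl (-4.09), Pdgfra (-3.84), Tgfbr2 (-3.19), Bmpr1b (-3.01), Tgfbr3 (-2.32) and Pdgfrb (-2.17). Of 37 Wnt pathway genes, 8 were lower in VM and 1 higher. After Dkk2 came the enhancer Rspo3 (-4.44), the ligand Wnt5a (-3.87), the receptor Fzd7 (-3.73) and Dkk3 (-3.66), while the receptor Fzd4 was higher in VM (3.56). The target gene Axin2 read 4.85 and 5.73 (-0.87). Lgr5 and Rspo2 were within 2 units on the probe set used, and their other probe sets differed by -4.78 and -3.95.

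Of 29 genes listed as markers of endothelium, 26 were higher in VM and 0 lower, with a median of 5.02. VM levels ran from 4.37 to 13.56 and TTF levels from 3.13 to 10.40. The endothelial surface protein Cd93 read 12.24 in VM and 3.87 in TTF (8.37), the vascular cadherin Cdh5 11.61 and 3.72 (7.89), and endomucin (Emcn) 10.91 and 3.13 (7.78). All 3 were at 3.86 or below in every pluripotent array. Sox18 (6.59), Kdr (6.36), Pecam1 (6.23) and Tek (5.09) were also higher in VM. The lymphatic marker Lyve1 read 4.37 and 3.77 on the probe set used, while its other probe set differed by 2.61. Fabp4 (13.56 and 9.09) and Prox1 (6.23 and 3.62) are also made by other cells. In bulk samples, fewer cells of a type and less RNA per cell cannot be told apart.

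The remaining cell types gave smaller counts. Of 18 smooth muscle and pericyte genes, 5 were higher in VM and 3 lower. Of the higher ones, Des and Ldb3 are also myocyte genes, and the others were the pericyte gene Rgs5 (5.35), Mcam (4.30) and Synpo2 (3.39). The lower ones were Actg2 (-5.36), Tagln (-4.48) and Cnn1 (-3.44). The adult smooth muscle myosin Myh11 was at 3.96 and 4.03 on the probe set used, while its other probe set differed by 2.00. Of 14 epicardial genes, 4 were higher in VM and 1 lower. The lower one was Bnc1 (-2.37). Krt18 read 8.57 in VM and 4.22 in TTF (4.35), and Wt1 read 5.54 and 3.81 (1.72). Of 24 macrophage and leukocyte genes, 2 were higher, the neutrophil genes S100a9 (7.76 and 3.67, 4.09) and S100a8 (3.22), and Lyz2 was lower (6.54 and 9.56, -3.02). Over the whole list, 13 of the 24 genes read above all 9 pluripotent arrays in both VM and TTF. The share of all 18193 genes that did so was not counted, so this is a description only. The complement gene C1qa was at 5.91 and 6.49, against 4.41 at most in pluripotent cells, and the adaptor gene Tyrobp at 6.17 and 6.73, against 4.99 at most. The receptor gene Csf1r was at 7.21 and 7.64, against 7.19 at most. Ptprc, which leukocytes carry, was at 4.60 and 4.24, against 3.82 at most, and Adgre1 at 4.05 and 4.15, against 3.81 at most. Other genes of the list went the opposite way. Cd68 (5.53 and 5.94), Laptm5 (5.29 and 5.89) and Coro1a (5.15 and 5.55) read below all 9 pluripotent arrays in both VM and TTF. The part of macrophages in the VM and TTF values was not tested. Of 12 erythroid genes, Alas2 (9.57 and 3.88, 5.69) and Car2 (2.72) were higher in VM, while the globin gene Hba-a1 was at 3.16 and 3.30.

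Of 22 skeletal muscle genes, slow troponin T (Tnnt1, 5.25) and Myl1 (3.90) were higher in VM, and Myod1 was at 3.82 and 3.43 and Myog at 4.07 and 3.74. Of 19 genes of keratinocytes and epithelium, Perp alone passed 2 units, at 11.38 in VM and 3.49 in TTF (7.88), with pluripotent levels of 8.14 to 9.50. Krt14 was at 3.81 and 3.17, Krt5 at 4.93 and 4.64 and Cdh1 at 3.90 and 3.40. Of 20 cartilage and bone genes, Tnmd (-7.47) and Matn2 (-4.64) were lower in VM, and Col2a1 was at 4.26 and 4.04. Of 13 adipocyte genes, 5 were higher, among them Cidea (5.70), Pnpla2 (3.36) and Pparg (3.12), and 1 was lower, the regulator Cebpa, at 4.58 and 7.55 (-2.97). Adipoq was at 2.95 and 2.92. Of 16 genes of glia, neurons and melanocytes, Mitf was higher (2.14) and Tubb3 lower (-2.89), and Sox10 was at 5.09 and 5.17. Read against the 9 pluripotent arrays, 29 of 29 endothelial genes were above all of them in VM and 5 in TTF. For smooth muscle and pericytes 13 and 12 of 18 were, for adipocytes 7 and 2 of 13, and for erythroid cells 7 and 1 of 12. For skeletal muscle 6 and 1 of 22 were, for cartilage and bone 6 and 8 of 20, for the epicardium 7 and 3 of 14, and for keratinocytes and epithelium 4 and 1 of 19. For glia, neurons and melanocytes 2 and 2 of 16 were. No such count was made over all 18193 genes, so these counts have no background share beside them and are a description only. The part of these cells in the VM and TTF values was not tested.

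Genes of DNA replication and mitosis did not separate the cell types at 2 units. Of 30, 0 were higher and 0 lower, the median was -0.06 and the range was -1.47 to 0.76. Mki67, a marker of cycling cells, read 10.40 in VM and 10.13 in TTF, and Pcna 12.11 and 11.73. The pluripotent arrays read both higher, Mki67 at 10.87 to 11.46 and Pcna at 13.25 to 13.57. Of 23 G1 cyclins and inhibitors, 5 were lower in VM and 0 higher. Cdkn2a read 3.94 in VM and 11.71 in TTF, with pluripotent levels of 7.38 to 8.85, and its neighbour Cdkn2b read 5.48 and 10.13 (-4.66). Both loci encode inhibitors of the cyclin D kinases, and which transcripts of Cdkn2a its probe set reads was not tested. Ccne1 (-2.15), Ccnd2 (-2.11) and Rbl2 (-2.03) were just past the threshold, and Cdkn1a was at 12.02 and 12.20.

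Of 24 immediate early and YAP target genes, 4 were higher in VM and 2 lower. Atf3, a stress response factor, read 12.09 in VM and 5.46 in TTF (6.63). Fosb (3.74), Fos (3.54) and Nr4a1 (2.50), which respond within minutes to stimulation, were the others. Ccn5 (5.18 and 10.07, -4.90) and Fosl2 (-2.12) were lower, while the YAP targets Ccn1 (0.01) and Ccn2 (0.69) were within 2 units. The other probe set of Fosl2 differed by 0.05.

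All 24 genes of the interferon response and MHC class I read higher in VM, 9 of them by 2 units or more, with a median of 1.61. Rsad2 read 12.27 and 5.78 (6.48), with pluripotent levels of 5.87 to 6.51, Usp18 differed by 4.89, Ifit1 by 4.34 and Oasl2 by 4.0. B2m, the light chain of MHC class I, was at 13.04 and 12.72.

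Of 23 imprinted genes, 2 were higher in VM and 5 lower. The higher ones were Igf2 and Plagl1 (2.32). The lower ones included Rian (8.52 and 12.27, -3.75), Meg3 (9.62 and 12.64, -3.02) and Mirg (-3.26), noncoding genes of the Dlk1-Dio3 region that lie next to each other, together with Impact (-3.14) and Ndn (-2.84). The ranges of Rian and Meg3 over the pluripotent arrays were wide, 5.20 to 10.16 and 6.24 to 10.61. All 21 measured ribosomal protein genes read lower in VM, with a median of -0.38, and 0 passed 2 units. Of 11 X-linked and Y-linked marker genes, 0 passed 2 units. Xist read 11.50 and 11.06 and the Y-linked Eif2s3y 8.28 and 8.39, so transcripts typical of female and of male cells were on both arrays.

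Genes with several probe sets allowed a check within the arrays. Of the 852 genes higher in VM, 446 have other probe sets. In 234 of them (52.5%) another probe set was also at least 2 units higher, and in 0 another was at least 2 units lower. Of the 841 lower genes, 473 have other probe sets, with 238 (50.3%) in the same direction and 4 in the opposite one. For many genes named above with 2 probe sets, the other one was within 2 units, and only examples are given here. These are Ryr2 (1.17), Cdh5 (1.27), Gata4 (0.96), Fabp3 (1.20), Des (1.15), Myl4 (0.45), Sln (0.28) and Tcf21 (0). The same held for Hoxa10 (-0.59), Hoxb3 (-0.58), Rspo3 (-0.51) and Fzd7 (-0.48), among others. Of 8091 genes with several probe sets that did not pass the threshold, 267 have another probe set that did. Probe sets of a gene can lie on different transcripts or differ in how well they work, and their part in these disagreements was not tested.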

How the data were processed

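The 11 arrays each hold 45101 probe sets. The authors made the deposited log2 values with RMA, which adjusts the background and normalizes between arrays, per the submitters' processing notes. The version, software and probe annotation are not given in the sources used here, and no detection calls were used. The 64 control probe sets, 932 with several gene symbols and 9160 with no symbol were left out. Of the 34945 probe sets with 1 symbol, 34741 were matched to RefSeq genes by Entrez identifier. Each of the 18193 genes was represented by its probe set of highest mean level across all 11 arrays, and 9010 genes had several.

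A difference is VM minus TTF in log2 units, with a threshold of 2 and no test. The replicate standard deviation pools the 3 pluripotent groups, whose labels do not say whether replicates were separate cultures. The members, 44 gene lists (979 of 1060 entries measured), 39 isoform pairs (35 measured) and motifs were chosen with earlier results of these data known. Genes named were drawn from the 15 largest differences in each direction and the 4 largest of each list. Members at 2 units or more against their list's median were a further source. Other members of lists and pairs, genes used to show the threshold and up to 10 genes with opposite probe sets were also named. Not every gene of these groups was named. Alternatives were the mean of a gene's probe sets, the probe set highest over VM and TTF, every probe set, thresholds of 1 and 3, a level of at least 7, median centring and quantile normalization of the 2 arrays. The steps were tested on simulated data. Python 3.11.15, pandas 2.3.3, numpy 2.4.6 and matplotlib 3.10.9 were used.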

Additional observations from a re-analysis of the deposited data

How the results depend on the processing

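With every probe set counted on its own, 1342 were higher in VM by 2 log2 units or more and 1348 lower. At a threshold of 1 log2 unit, 1931 genes were higher and 2482 lower, and at 3 units 478 were higher and 374 lower. Under the other alternatives the counts stayed between 687 and 883 higher and between 636 and 851 lower. The mean of a gene's probe sets gave the lowest counts, with 662 of the 852 higher genes and 606 of the 841 lower genes still past the threshold. Of the 967 genes of lists and largest differences, 369 passed the threshold. Genes that stand only in the isoform pairs were not part of this count. With the mean of probe sets, 56 of them no longer passed and 16 others did, and none passed in the other direction. Asph turned from -2.68 to 0.39 under that mean, and the cause was not tested. Irx1 fell inside 2 units when the differences were centred on the median or the arrays were quantile normalized. Each of the 44 lists has a count higher, a count lower and a median. With the mean of probe sets, 12 list counts moved by over 1.5 times and 76 did not, and 23 list medians moved by more than the pluripotent replicate spread and 21 did not. With a level of at least 7, 9 list counts and 25 list medians moved, the largest shift being that of cartilage and bone, whose median went from 0.025 to -4.64. With every probe set counted, 32 list counts and 20 list medians moved, and with thresholds of 1 and 3, 38 and 27 list counts did. The probe set highest over VM and TTF moved 2 counts and 5 medians, quantile normalization 2 and 1, and centring 2 and 0. No list median of 2 units or more changed sign. No paired analysis was possible because VM and TTF have 1 array each, and no replicate could be left out. Signal near the bottom of the scale is mostly background, so folds of genes low in either cell type can be understated.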

Other observations

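Of 9160 probe sets with no gene symbol, 127 were higher in VM by 2 log2 units or more and 91 lower, together 2.38%, with differences from -7.96 to 6.75. In 6 genes, probe sets passed 2 units in opposite directions, out of 9010 genes with several probe sets. Besides Tpm1 and Asph these were Pde4dip, at 10.18 in VM and 5.72 in TTF on 1 probe set (4.46) and 4.43 and 7.41 on another (-2.98), Masp1 (2.37 and -3.55), Synpo (2.02 and -2.99) and Rgs3 (2.49 and -2.38). The RNA-binding protein gene Qk read 11.16 and 11.13 on the probe set used, while 5 of its other 6 probe sets were at least 2 units higher in VM, up to 7.86 against 3.97 (3.89). Genes higher and lower in VM were spread over the chromosomes. Chromosome 17 had 35 higher and 18 lower among 834 genes, and chromosome 9, which holds Crabp1, Mmp3, Mmp13, Thy1 and Cilp, had 39 higher and 65 lower among 1002.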
